A study of Mus musculus with 35 samples.

Results

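At birth (P0), 4572 reproducible H3K4me3 peaks of the wild-type mouse retina had no overlapping Brg1 peak. They were taken from the second of 2 P0 H3K4me3 libraries, which held 21661 peaks, 20955 of them on chromosomes 1 to 19. Of these, 18687 (89.2%) overlapped a peak of the first library by at least 1 bp. The 4572 peaks that overlapped none of the 50861 peaks of the P0 Brg1-FLAG library were 24.5% of the reproducible peaks (Wilson 95% interval 23.9 to 25.1%, counting error only). The other 14115 overlapped a Brg1 peak and served for comparison. The members were therefore chosen by P0 H3K4me3 and P0 Brg1 peaks alone, and H3K27Ac, H3K27me3 and later H3K4me3 took no part in the choice.

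The series profiled retinae by ChIP-Seq. Wild-type retinae gave 2 libraries each of H3K4me3, H3K27Ac and H3K27me3 at P0, P14 and P21, and at P12 they gave 1 library of H3K4me3, 1 of H3K27Ac and 2 of H3K27me3. Brg1-deficient retinae (labelled BRG1 -/-, from Chx10-Cre;Brg1 Lox/Lox mice) gave 1 H3K4me3, 2 H3K27Ac and 1 H3K27me3 library at P12. Their Cre transgene is active in only part of the retinal progenitors and at levels that vary between mice, and animals with small eyes were chosen preferentially, so that tissue also holds cells that keep Brg1, in a share not known for these libraries. Brg1 was mapped through its FLAG tag in retinae of Brg1-FLAG knock-in mice. These were supplied frozen by another laboratory and gave 1 library, so the sorting of peaks by Brg1 has no replicate. H3K27me3 was measured with an antibody labelled AB3 at P12 and AB1 at the other stages. The labels do not say whether replicates came from separate litters, so p-values measure the spread between libraries only.

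H3K4me3 marks the nucleosomes around transcription start sites and is deposited at CpG-rich promoters whether or not they are fully active. H3K27Ac, placed by the acetyltransferases p300 and CBP, marks active promoters and enhancers. H3K27me3, placed by Polycomb repressive complex 2, occupies the same lysine and covers silenced developmental genes, and a promoter with H3K4me3 and H3K27me3 together is called bivalent. Brg1 (Smarca4) is an ATPase of the SWI/SNF chromatin remodelling complexes, which slide or evict nucleosomes at promoters and enhancers. The comparison asked what the H3K4me3 peaks of the newborn retina look like, and become, where no Brg1 peak was called.

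Read depth is unknown from these lists, and the number of peaks stands in its place. The H3K4me3 lists held between 18534 and 24124 peaks. H3K27Ac lists ranged from 17433 to 50005 peaks, and replicate 1 was the shorter list at P0, P14 and P21. A peak missing from a short list is a peak not detected there, not a mark shown to be absent. Positions are mouse mm9. Peaks were not assigned to genes and the retinal identity of the tissue was not checked against marker genes, since no mm9 annotation was used here. Whole retinae were profiled, so fewer cells with a mark and less of the mark per cell cannot be told apart.

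The members were weaker and shorter than the peaks with Brg1, by the values on which they were chosen. Their height, the deposited fold enrichment of a peak over background, had a median of 13.3 (quartiles 6.85 and 26.3) in replicate 2, against 34.0 for peaks with Brg1. Their median length was 884.5 bp, with a range from 250 to 5583 bp, against 1718 bp. Because marks depend on height, shares of marked peaks with Brg1 are weighted below to the members in 20 bins of replicate 2 height of equal size ("matched"), unless said otherwise. Height classes were weighted in bins within each class. Gaps between peaks, the sets at the edge of the rule, height ratios and limma values were not weighted. After weighting, the peaks with Brg1 had medians of 13.3 in height and 1105 bp in length, so a difference in length remained.

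Members were found on all 19 autosomes. They made up between 18.5% of the reproducible peaks of chromosome 11 (281 of 1523) and 33.9% of those of chromosome 13 (278 of 819). The nearest Brg1 peak lay at a median of 24379 bp (quartiles 5842 and 77384 bp). It lay within 1000 bp of 494 members (10.8%) and more than 100000 bp from 935 (20.5%). The next H3K4me3 peak of replicate 2 was within 2000 bp for 612 members (13.4%), against 15.6% of the peaks with Brg1, and 336 members (7.35%) had a peak with Brg1 that close. At the edge of the rule, 81 members had a Brg1 peak within 100 bp, and 114 comparison peaks were overlapped by Brg1 for less than 100 bp. Their median heights were 7.37 and 7.85, and 11 of the 81 (13.6%) and 22 of the 114 (19.3%) had H3K27Ac in both P0 libraries.

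The strongest members kept H3K4me3 and were acetylated. The highest, at chr4:148472649-148474386, had an H3K4me3 height of 73.5 and 88.4 in the P0 libraries, 77.2 at P12, 74.5 and 62.7 at P14, and 91.4 and 37.9 at P21. It was acetylated in all 7 wild-type H3K27Ac libraries, at heights of 7.93 and 17.5 at P0, 13.0 at P12, 9.33 and 16.0 at P14, and 5.01 and 9.98 at P21. No H3K27me3 island covered it in any library, and the nearest Brg1 peak was 3984 bp away. The next, at chr5:48763133-48764458, lay 387240 bp from Brg1 and had P0 H3K4me3 heights of 48.0 and 85.7, with H3K27Ac at 11.8 and 14.5. The 5 highest members all had H3K27Ac in both P0 libraries and no H3K27me3 in any wild-type library.

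H3K27Ac was found at fewer members than at matched peaks with Brg1 in every wild-type library. At P0, replicate 1 had an H3K27Ac peak at 23.3% of members (1064 of 4572) and at 45.1% of matched peaks, and replicate 2 at 43.5% and 67.6%. At P12 the shares were 38.1% and 58.2%. At P14 they were 12.7% and 31.8% in replicate 1, and 50.1% and 69.8% in replicate 2. At P21 they were 11.7% and 27.2% in replicate 1, and 40.7% and 59.3% in replicate 2. In each stage with 2 libraries both shares were lower in replicate 1, the shorter list, while the difference between them stayed between -24.0 and -15.5 percentage points. The mean difference was -19.9 points (SD 2.67, n = 7 libraries), members being lower in 7 of 7 (exact two-sided sign-flip permutation test, p = 0.0156, the smallest 7 libraries can give, and 0.0469 after Benjamini-Hochberg adjustment over 3 marks). All libraries were read against the same peaks and the 1 Brg1-FLAG library, so this p does not cover error in the sorting by Brg1.

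**Figure D1:**
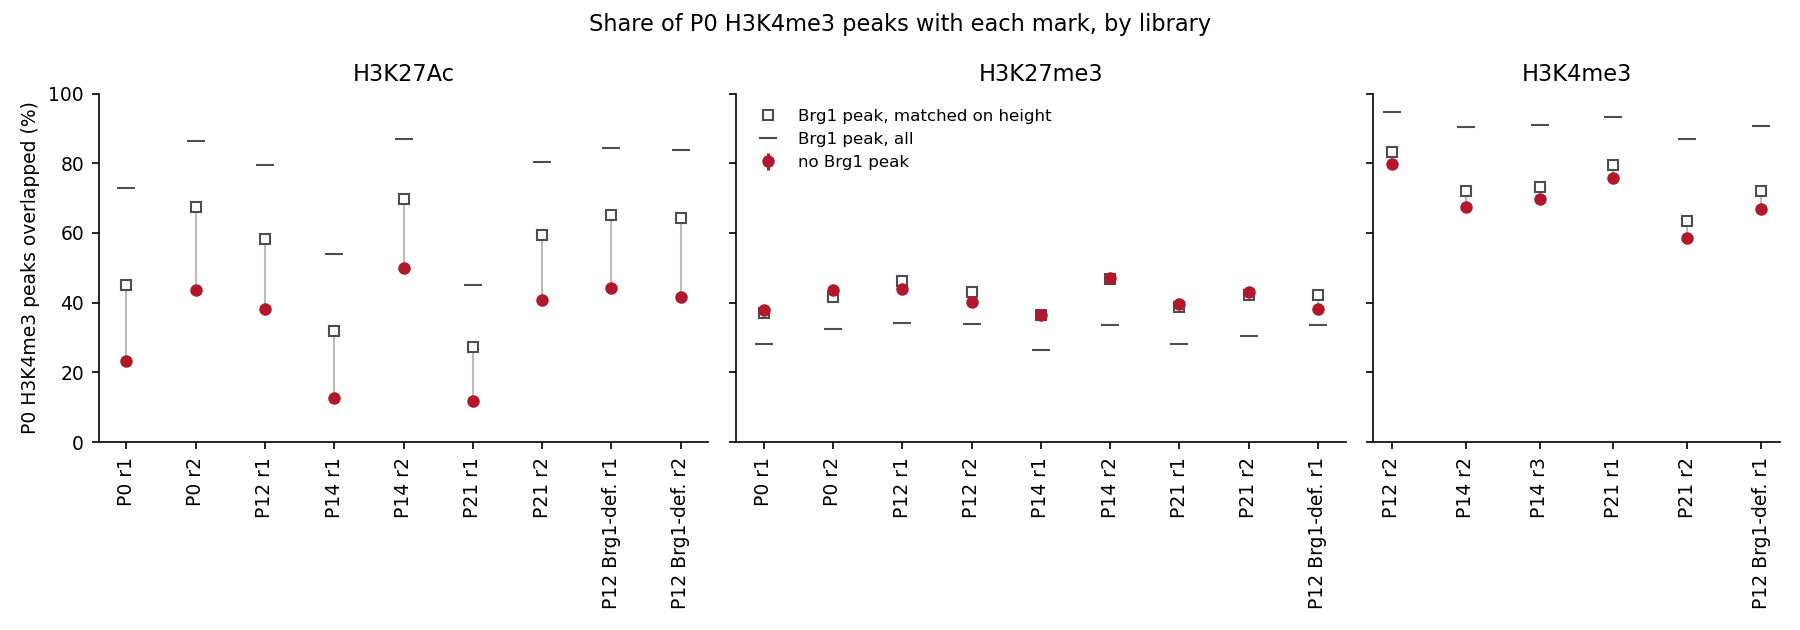
Share of P0 H3K4me3 peaks (percent, y axis) overlapped by a peak or island of each mark in each library (x axis, r for replicate). Red points are the 4572 peaks without Brg1 with Wilson 95% intervals, open squares the peaks with Brg1 matched on height, and dashes all 14115 peaks with Brg1. The red points lie under the squares for wild-type H3K27Ac, by differences of -24.0 to -15.5 points, and for later wild-type H3K4me3, by -4.67 to -3.32 points, and on both sides of them for H3K27me3.

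Taking only H3K27Ac peaks called in both P0 libraries, 1034 members (22.6%, Wilson 21.4 to 23.9%) were acetylated, against 44.5% of matched peaks, a difference of -21.9 points (95% counting interval -23.2 to -20.5). Before matching, 72.4% of the peaks with Brg1 were acetylated. The difference was -18.9 points when peaks were matched on height and length together. It was -27.1 points when the comparison was held to peaks overlapping the stronger 50% of Brg1 peaks. It was -10.5 points when H3K27Ac had to cover at least 50% of the H3K4me3 peak. So counted, only 1.03% of members and 11.5% of matched peaks were acetylated.

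Where members were acetylated, their H3K27Ac peaks were lower than those at peaks with Brg1, and in most libraries not lower than H3K27Ac peaks in general. Where several H3K27Ac peaks overlapped a member or a peak with Brg1, the highest was taken. The median at members was 6.04 in replicate 1 and 5.29 in replicate 2 at P0, 5.89 at P12, 6.04 and 6.25 at P14, and 5.03 and 5.72 at P21. Over all H3K27Ac peaks of the same libraries, each counted by itself, the medians were 6.60 and 5.14 at P0, 4.82 at P12, 5.95 and 4.82 at P14, and 4.90 and 4.75 at P21. On these unlike measures the members' median was the higher in 6 of 7 libraries and the lower in P0 replicate 1. Over the unmatched peaks with Brg1 the medians were 8.63 and 8.58 at P0, 9.65 at P12, 7.43 and 12.4 at P14, and 5.82 and 8.30 at P21, higher than at members in all 7 libraries. Later H3K4me3 peaks at members had median heights between 9.50 and 15.4 in the 5 later wild-type libraries, against 22.0 to 56.3 at unmatched peaks with Brg1. These heights were not matched and are given as a description.

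Acetylation rose steeply with the height of the H3K4me3 peak in both classes. The members were divided into 4 height classes of about equal size. In class 1, with heights from 2.21 to 6.85, 8 of 1143 (0.700%) were acetylated in both P0 libraries, against 18.3% of peaks with Brg1 at those heights. In class 2 the shares were 2.96% and 23.4%, and in class 3 they were 18.7% and 46.4%. In class 4, from 26.3 to 88.4, they were 68.2% (779 of 1143) and 89.4%. The counting interval of the difference excluded 0 in each class. In the highest of the 20 bins the classes were close, at 96.8% of 93 members and 98.8% of 842 peaks with Brg1.

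**Figure D2:**
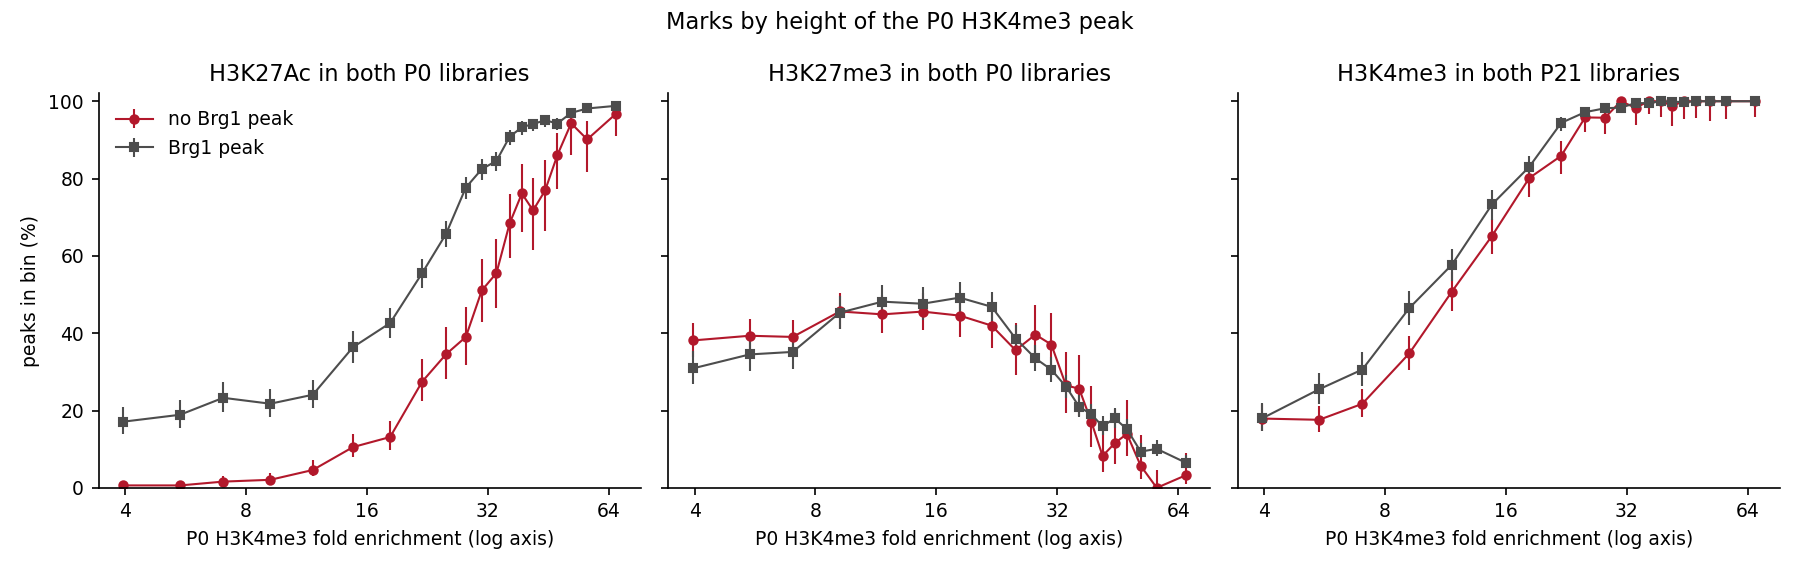
Share of peaks (percent, y axis) with H3K27Ac in both P0 libraries, H3K27me3 in both P0 libraries and H3K4me3 in both P21 libraries, by the median P0 H3K4me3 fold enrichment of 20 bins (x axis, log scale). Red circles are peaks without Brg1 and grey squares peaks with Brg1, with Wilson 95% intervals. The H3K27Ac curve of peaks without Brg1 runs under the other from 0.625% against 17.1% in the lowest bin to 96.8% against 98.8% in the highest.

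Distance to Brg1 did not order the members simply. Of the 494 members within 1000 bp of a Brg1 peak, 10.1% were acetylated in both P0 libraries (Wilson 7.76 to 13.1%). The share was 17.6% at 1000 to 5000 bp, 27.2% at 5000 to 25000 bp, 27.1% at 25000 to 100000 bp and 19.6% beyond. The members nearest to Brg1 were also the weakest, with a median height of 7.32, against 15.8 beyond 100000 bp. Against peaks with Brg1 of the same heights the difference was -20.8 points for the nearest class, between -21.5 and -19.8 points for the next 3, and -27.5 points (interval -29.7 to -25.3) beyond 100000 bp. H3K27me3 covered 41.7% of members within 1000 bp and 47.4% of those at 1000 to 5000 bp, and between 32.5% and 35.2% of those farther away. These classes were compared by their counting intervals only.

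**Figure D3:**
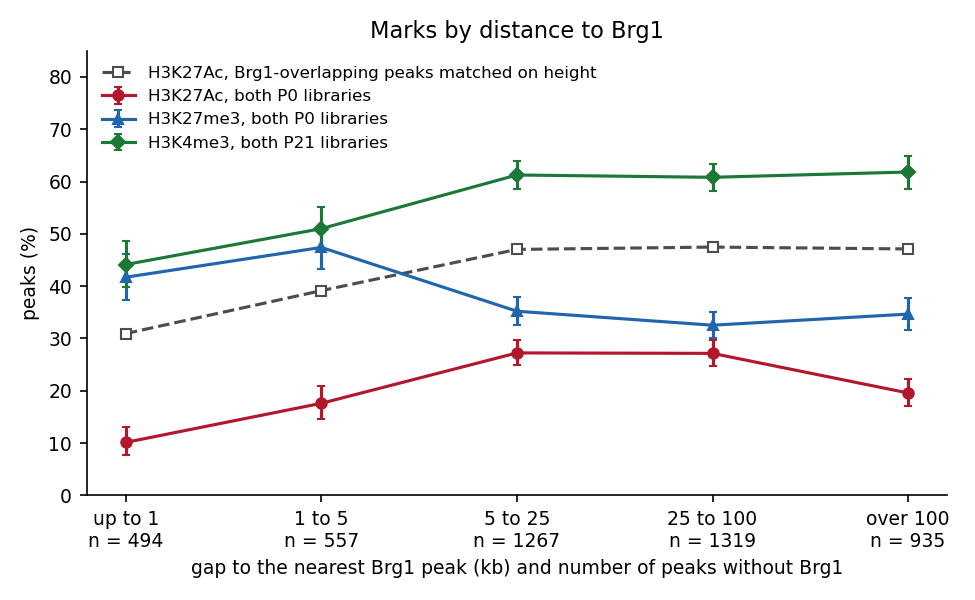
Share of peaks without Brg1 (percent, y axis) that had H3K27Ac or H3K27me3 in both P0 libraries or H3K4me3 in both P21 libraries, by the gap to the nearest Brg1 peak (x axis, kb, with the number of peaks), with Wilson 95% intervals. Open squares are peaks with Brg1 weighted to the heights of each class, and the H3K27Ac of peaks without Brg1 lies under them, by differences of -27.5 to -19.8 points.

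Some members were acetylated very far from any Brg1 peak. The farthest with H3K27Ac in both P0 libraries, at chr4:77857170-77858564, lay 1760123 bp from Brg1. Its P0 heights were 35.1 and 30.6 for H3K4me3 and 5.24 and 4.43 for H3K27Ac. It was acetylated in 1 of the 5 later wild-type libraries, P14 replicate 2 at 6.47, and had an H3K27me3 island in all 9 H3K27me3 libraries. A second, at chr2:81892413-81894804, lay 1412602 bp from Brg1 and was acetylated in all 7 wild-type libraries, between 4.67 and 10.9. It also carried H3K27me3 in every library. Of the 5 farthest acetylated members, 4 had both marks at P0.

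The strongest members without any P0 H3K27Ac differed in H3K27me3. There were 2552 members (55.8%) with no H3K27Ac peak in either P0 library, against 31.8% of matched peaks with Brg1. The highest, at chr2:18508424-18510120, had H3K4me3 at 45.5 and 59.4 at P0. It had H3K27Ac only in the P12 library (4.72) and P14 replicate 2 (6.90) among wild-type libraries, and in both Brg1-deficient P12 libraries (4.15 and 6.40). Its only H3K27me3 island was in P0 replicate 2. The second, at chr15:102993011-102994258, lay 474 bp from a Brg1 peak, had H3K4me3 at 32.1 and 58.5, and gained low H3K27Ac peaks of 3.30 to 5.83 in 3 later wild-type libraries. No library had an H3K27me3 island there. The other 3 of the 5 highest carried H3K27me3 in all 9 libraries. One of these, at chr3:29910844-29912403, had H3K4me3 at 23.3 and 50.3 at P0, 13.1 at P12, 8.88 and 9.16 at P14 and 8.46 and 4.43 at P21, and had no H3K27Ac peak at any stage.

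The share of members with H3K27me3 differed little from that of matched peaks with Brg1 when averaged over all heights, and in both directions within them. At P0 an island covered 38.0% of members and 37.2% of matched peaks in replicate 1, and 43.7% and 41.7% in replicate 2. At P14 the pairs were 36.4% and 36.4%, and 47.1% and 46.8%. At P21 they were 39.5% and 38.8%, and 43.0% and 42.1%. At P12, with the other antibody, they were 43.8% and 46.2%, and 40.2% and 43.2%. The mean difference was -0.05 points (SD 1.73, n = 8 libraries, 6 higher and 2 lower), which did not pass the exact two-sided sign-flip permutation test (p = 0.93 before and after Benjamini-Hochberg adjustment over 3 marks). This value turned with the matching: members were higher by 2.84 points, in 8 of 8 libraries, when matched on height and length together (exact sign-flip permutation test, p = 0.00781, unadjusted). Without any matching they were higher by 10.6 points, also in 8 of 8 libraries. By height class, H3K27me3 was found in both P0 libraries at 37.5% of members and 32.8% of peaks with Brg1 in class 1, a difference of 4.70 points (interval 0.74 to 8.67). The shares were 44.8% and 44.1% in class 2. In class 3 they were 43.3% and 46.9%, a difference of -3.62 points (interval -7.19 to -0.05), and in class 4 they were 20.4% and 20.9%.

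Most members with H3K27me3 at P0 had it later. Of the 1669 members with an island in both P0 libraries, 84.8% had one in both P14 libraries, against 81.2% of matched peaks with Brg1, and 88.0% and 81.2% had one in both P21 libraries. Of the 2504 members with no island in either P0 library, 3.71% had one in both P14 libraries and 5.03% in both P21 libraries, against 7.76% and 9.48% of matched peaks. The counting interval of each of these 4 differences excluded 0, and they were not tested over libraries. In all, 1330 members (29.1%) carried H3K27me3 in all 8 wild-type libraries, against 27.8% of matched peaks (difference 1.28 points, interval -0.39 to 2.96).

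The 5 highest members with H3K27me3 in both P0 libraries also had H3K27Ac in both, and parted later. At chr1:172966764-172969070, the first, H3K4me3 was 30.0 and 73.5 at P0, and H3K27Ac was 8.82 and 9.85. Beyond P0 it had an island in P12 replicate 1 alone, while H3K27Ac was present in all 5 later wild-type libraries, between 3.89 and 14.6. Another of the 5, at chr18:53576764-53578183, had H3K27Ac at 4.94 and 8.05 at P0 and in no later library, and kept H3K27me3 in all 9. Its H3K4me3 height was 29.8 and 61.8 at P0, 29.4 at P12, 18.4 and 17.7 at P14, and 16.1 and 8.15 at P21.

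Taking both marks together, members were more often without either than matched peaks. At P0, 928 members (20.3%) had H3K27Ac in both libraries without H3K27me3 in both, against 37.7% of matched peaks with Brg1. Both marks were found at 106 members (2.32%, against 6.75%). H3K27me3 without H3K27Ac was found at 1563 (34.2%, against 29.3%). All bivalent members, with H3K27me3 in both P0 libraries whether or not H3K27Ac was there too, numbered 1669 (36.5%, against 36.0%), a difference of 0.48 points whose interval held 0 (-1.28 to 2.24). Neither mark in both libraries was found at 1975 members (43.2%, against 26.3%), a difference of 16.9 points (interval 15.2 to 18.7). Using either library in place of both, 1087 members (23.8%) had no H3K27Ac peak and no H3K27me3 island in any P0 library, against 8.41% of matched peaks. The 1975 members with neither mark in both libraries were short and weak, with medians of 667 bp in length and 9.11 in height. The 928 with H3K27Ac without H3K27me3 had medians of 1424.5 bp and 37.8.

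H3K4me3 itself persisted at most members. The P12 library held a peak at 79.9% of members and 83.2% of matched peaks with Brg1. At P14 the shares were 67.5% and 71.9% in replicate 2, and 69.8% and 73.2% in replicate 3. At P21 they were 75.7% and 79.6% in replicate 1, and 58.7% and 63.3% in replicate 2. Members were lower in 5 of 5 libraries, by a mean of -3.91 points (SD 0.61). The exact two-sided sign-flip permutation test over 5 libraries cannot go below p = 0.0625, which is the value it gave (0.0938 after Benjamini-Hochberg adjustment over 3 marks). Matched on height and length together the mean difference was -2.03 points, again in 5 of 5 libraries.

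Between all and none of the later libraries, members were divided unevenly. A peak was present in all 5 at 2572 members (56.3%, against 61.8% of matched peaks) and in none at 775 (17.0%, against 14.3%). The counting intervals of both differences excluded 0. Members found in all 5 had medians of 23.6 in P0 height and 1179.5 bp in length, and those found in none had 5.76 and 518 bp. The gap between classes was narrow at the ends of the height range and wider in the middle. In height class 1, 18.4% of members had a peak in both P21 libraries, against 22.7% of peaks with Brg1. The shares were 36.7% and 46.4% in class 2, and 78.6% and 84.1% in class 3. In class 4 they were 99.1% and 99.4%, and the interval of that difference (-0.83 to 0.31 points) held 0.

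**Figure D4:**
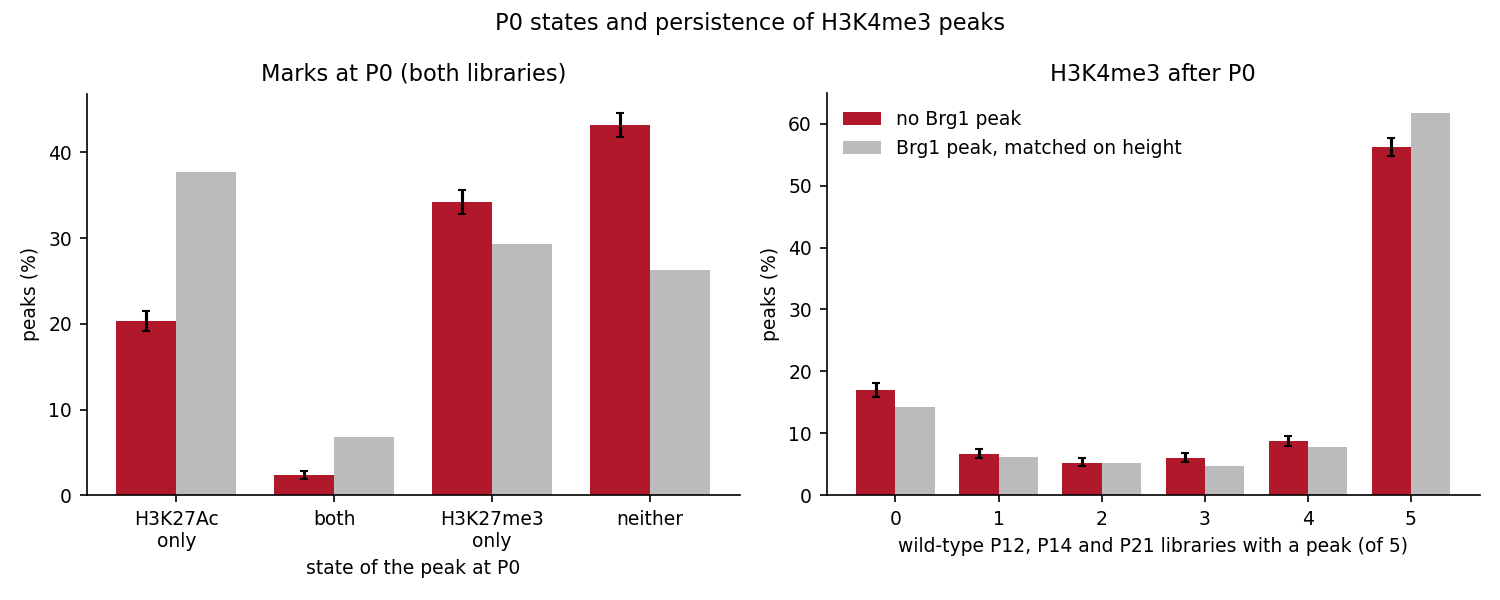
Left, share of peaks (percent, y axis) in each state at P0, a mark being counted when present in both P0 libraries. Right, share of peaks (percent) by the number of the 5 later wild-type H3K4me3 libraries that held a peak. Red bars are the 4572 peaks without Brg1 with Wilson 95% intervals and grey bars the peaks with Brg1 matched on height. Neither mark was found at 43.2% of red against 26.3% of grey, and 56.3% against 61.8% had a peak in all 5 later libraries.

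Persistence differed widely between the P0 states. Of the 928 members with H3K27Ac without H3K27me3, 897 (96.7%) had H3K4me3 in all 5 later libraries and 5 in none, and 96.7% of peaks with Brg1 in the same state, matched on height, had it in all 5 (difference interval -0.97 to 0.96). Of the 1563 with H3K27me3 without H3K27Ac, 743 (47.5%) had it in all 5, against 51.8% (interval of the difference -7.01 to -1.50), and 301 (19.3%) in none, against 17.1% (interval -0.39 to 4.67). Of the 1975 with neither mark in both P0 libraries, 829 (42.0%) had H3K4me3 in all 5, against 45.3% (interval -6.07 to -0.67). A later peak was absent from all 5 at 468 (23.7%), against 20.9% (interval 0.27 to 5.33). A mark was counted here only when present in both P0 libraries. The 775 members without any later H3K4me3 peak thus comprised 468 with neither mark, 301 with H3K27me3 alone, 5 with H3K27Ac alone and 1 with both. The highest of the 775, at chr10:45188797-45190531, had H3K4me3 at 18.7 and 25.2 at P0 and no peak in any later library. It had no H3K27Ac peak in any library and an H3K27me3 island in all 9. Of the 5 highest of the 775, 4 had this pattern. The other, at chr10:12267697-12269091, had islands only in P14 replicate 2 and P21 replicate 2, and an H3K27Ac peak only in P0 replicate 2 (4.76).

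P0 H3K27Ac peaks of members were found again later less often than those at peaks with Brg1. Of the 1034 members with H3K27Ac in both P0 libraries, 437 (42.3%) had it in both P14 libraries, against 67.9% of matched peaks, and 352 (34.0%) in both P21 libraries, against 56.2%. The differences of -25.6 and -22.2 points had counting intervals without 0 (-28.7 to -22.5 and -25.2 to -19.2). Matching was on H3K4me3 height and not on H3K27Ac height. Over all acetylated members the P0 H3K27Ac medians were 6.04 and 5.29, against 8.63 and 8.58 at unmatched peaks with Brg1. Both libraries of a stage were required, and so the short lists of replicate 1. Whether weaker P0 peaks fell below detection later was not tested. In every one of the 7 wild-type libraries 292 members (6.39%) were acetylated, against 20.2%. At the other end, 1748 members (38.2%) had no H3K27Ac peak in any wild-type library of any stage, against 17.8%.

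How often acetylation was new after P0 depended on how many libraries had to show it. Of the 2552 members without an H3K27Ac peak in either P0 library, 804 (31.5%) had one in at least 1 of the 5 later wild-type libraries, against 44.4% of matched peaks with Brg1. At least 1 P14 library showed it at 650 (25.5%, against 40.3%) and at least 1 P21 library at 465 (18.2%, against 26.5%). Requiring every library of a stage, and so the short lists of replicate 1, 62 (2.43%) had one in both P14 libraries, 87 (3.41%) in both P21 libraries and 53 (2.08%) in all 4. The matched shares at peaks with Brg1 were 6.66%, 6.20% and 5.08%, and in all 6 of these comparisons the counting interval of the difference excluded 0, members being the lower. Of the 53, the member with the highest mean P21 H3K27Ac, at chr10:61758774-61759442, had heights of 13.4 at P12, 9.54 and 20.4 at P14 and 11.0 and 19.8 at P21. Its H3K4me3 stayed low, between 2.83 and 6.56 in all 7 libraries, and a Brg1 peak lay 1020 bp away. The next 2, at chr1:4348619-4349247 and chr1:4349312-4349800, were neighbouring P0 peaks, with H3K4me3 between 4.29 and 6.26, that fell under 1 broad peak later and so share their later values. H3K4me3 there was 29.1 at P12, 22.3 and 19.2 at P14 and 50.4 and 24.2 at P21, and H3K27Ac was 14.4 at P12, 20.5 and 13.1 at P14 and 17.0 and 11.8 at P21. The nearest Brg1 peak was 211758 bp from the nearer of them. The same gain was present in Brg1-deficient retinae at P12, with H3K4me3 at 20.2 and H3K27Ac at 13.3 and 12.5.

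**Figure D5:**
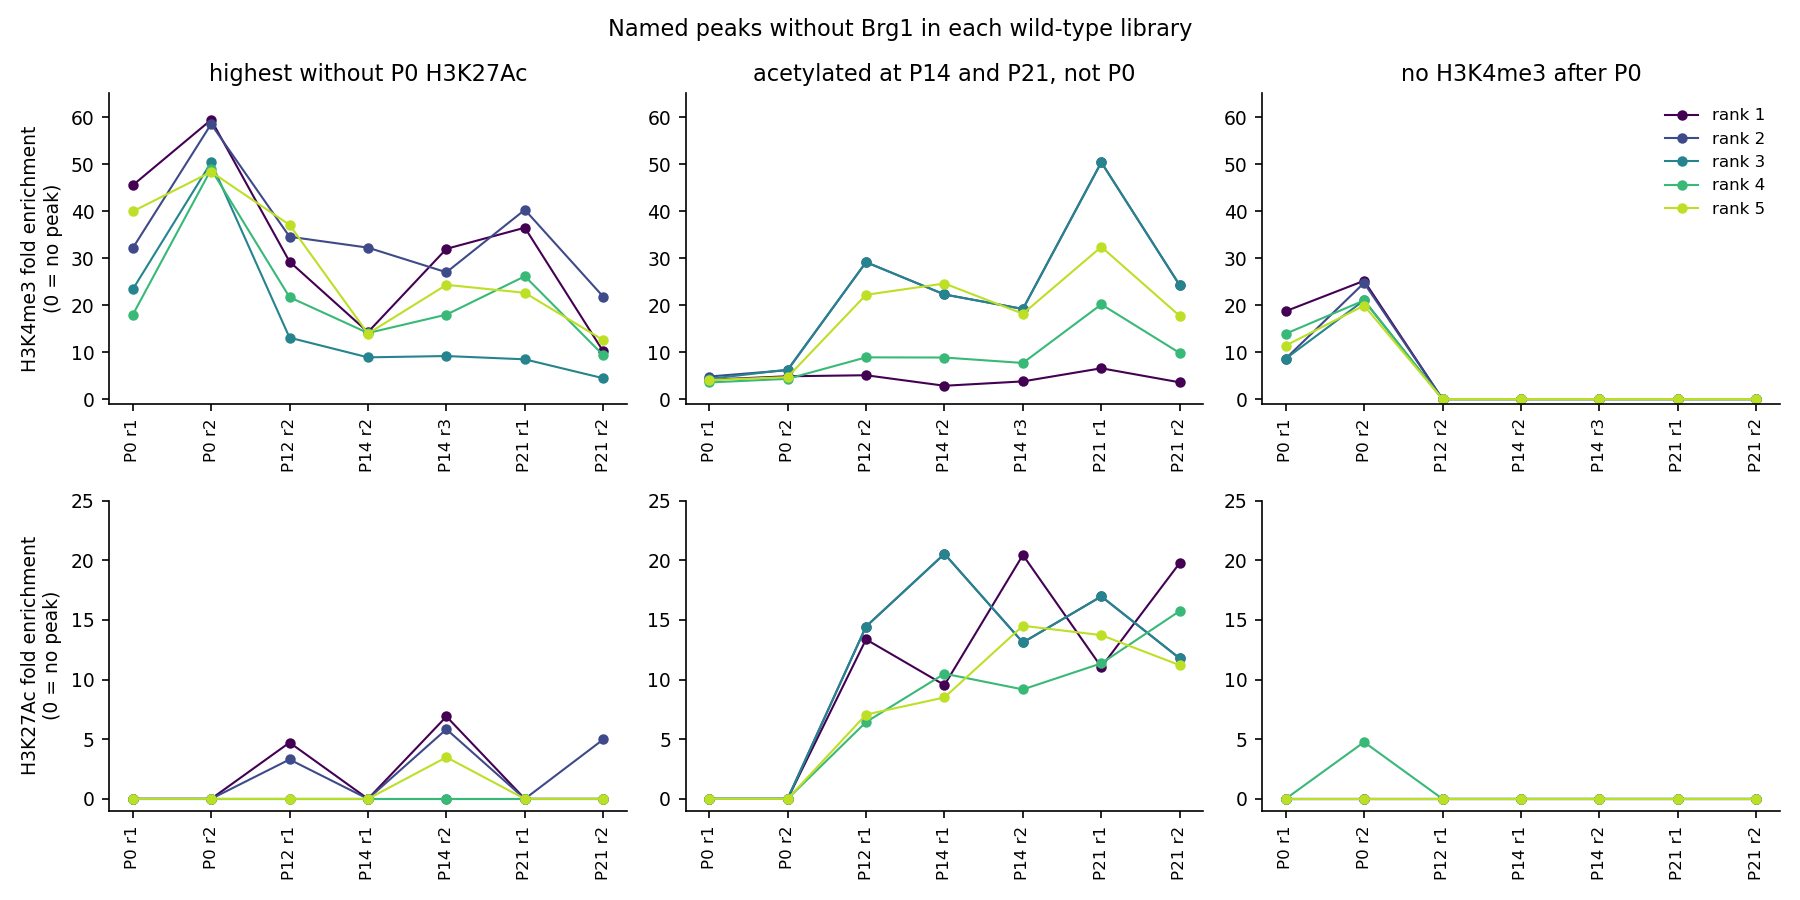
H3K4me3 (top) and H3K27Ac (bottom) fold enrichment (y axis, 0 for no peak) in each wild-type library (x axis) of the 5 top-ranked peaks without Brg1 in 3 groups: the highest without P0 H3K27Ac, those acetylated at P14 and P21 and not at P0, and those without H3K4me3 after P0. Rank 2 of the middle group is hidden by rank 3, whose later values it shares, and both rise from 4.29 to 6.26 at P0 to between 19.2 and 50.4 later for H3K4me3.

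The longest members differed in their course. The first, at chr7:16459700-16465282 (5583 bp), lay 56 bp from a Brg1 peak. Its H3K4me3 height was 6.46 and 20.2 at P0, 43.6 at P12, 26.3 and 16.9 at P14 and 53.0 and 25.9 at P21. H3K27Ac was absent from P0 replicate 1, 5.37 in replicate 2, 19.1 at P12, 26.3 and 15.0 at P14 and 20.6 and 13.5 at P21, so that H3K27Ac was lower in both P0 libraries than in any later one. The second, at chr16:52450288-52454880, carried H3K27me3 in all 9 libraries beside H3K4me3 of 19.7 and 37.3 at P0 and 26.5 and 13.9 at P21.

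Brg1-deficient and wild-type retinae were compared at P12. Of the 3652 members with H3K4me3 in the wild-type P12 library, 3032 (83.0%, Wilson 81.8 to 84.2%) had a peak in the Brg1-deficient library, against 86.8% of matched peaks with Brg1. The wild-type P14 libraries held 84.3% and 86.4% of the same members, against 86.9% and 88.1% of matched peaks. Where both P12 libraries had a peak, the log2 ratio of Brg1-deficient to wild-type height, centred on the median of all reproducible peaks, had a median of -0.07 (SD 0.56 over 3032 members) and of 0.01 at peaks with Brg1. For P14 over P12 in wild-type retinae it was 0.12 and 0.06 at members, and -0.03 and -0.01 at peaks with Brg1.

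H3K27Ac and H3K27me3 at members were also mostly found in Brg1-deficient retinae. Of the 1743 members with wild-type P12 H3K27Ac, 1556 (89.3%) and 1531 (87.8%) had a peak in the 2 Brg1-deficient libraries and 1458 (83.6%) in both, against 93.5% of matched peaks with Brg1 in both. Wild-type P14 replicate 2 held 92.9%, against 97.8% of matched peaks, and replicate 1, the shortest list, 33.3%, against 58.9%. The centred log2 height ratios at members were -0.04 and -0.00 (SD 0.52 for each, over 1556 and 1531 members). Of the 2829 members without wild-type P12 H3K27Ac, 16.4% and 13.3% had a peak in the Brg1-deficient libraries, against 26.9% and 23.4% of matched peaks. In wild-type P14 replicate 2 the shares were 23.6% and 33.9%. Of the 1729 members with H3K27me3 in both wild-type P12 libraries, 1573 (91.0%) had an island in the Brg1-deficient library, against 93.6% of matched peaks. The wild-type P14 libraries held islands at 87.6% and 98.4% of these members, against 84.4% and 97.5% of matched peaks. With 1 wild-type P12 library of H3K4me3 and of H3K27Ac, genotype was not tested, and all peaks of the Brg1-deficient library of a mark share its depth.

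Heights were compared between stages with limma over all merged regions of a mark with a peak in at least 2 of the 6 wild-type libraries. For H3K27Ac, 2098 of the 4572 members lay in a tested region. Between P21 and P0, 41 members (1.95%) were in a region called higher at P21 and 31 (1.48%) in one called lower (limma, adjusted p under 0.05). Of all 33340 regions 7.94% and 2.46% were called, and of the 12233 peaks with Brg1 in tested regions 0.60% and 1.72%. The median log2 change was -0.14 at members, 0.52 over all tested regions and -0.35 at peaks with Brg1. These calls depended on single libraries. They fell to 0 in both directions without P0 replicate 1, P0 replicate 2, P14 replicate 1 or P21 replicate 1. They did not fall to 0 without P14 replicate 2 or without P21 replicate 2. There the median log2 change at members was -0.19 and -0.80, against 0.04 and -0.41 over all regions. Without scaling the calls were 0 as well, both at members and over all regions. Restricted to regions with a peak in all 6 libraries, 9 of 301 members (2.99%) were called higher and 0 lower, against 2.99% and 0.67% of all such regions. The median change at members turned with the libraries too. It was 0.40 without P0 replicate 2 and 0.36 without P21 replicate 1, against 0.73 and 0.84 over all regions. Without P0 replicate 1 it was -0.60, against 0.59. In regions with a peak in all 6 it was 0.13, against 0.01, and without scaling -0.25, against 0.23.

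No member was called for H3K27Ac between P14 and P0, where 0% of regions were called in either direction. An unadjusted limma p under 0.05 was reached there by 148 of the 2098 members tested and by 5337 of all 33340 regions. Between P21 and P14 no member was called either, with 0% of regions called, and 28 members and 2006 regions were at that unadjusted p. For H3K4me3, all 4572 members lay in a tested region, because their peaks in both P0 libraries met the filter. Between P21 and P14 none was called (limma, 0% of 21075 regions in either direction). An unadjusted limma p under 0.05 was reached by 348 members and by 1742 of all regions. The median log2 change was -0.00, which counts a change of 0 at members in regions with no peak at either stage. With P0 replicate 1 or P0 replicate 2 left out, 3623 members were tested and the median was -0.14, against -0.07 at peaks with Brg1. It was -0.10 over 2635 members in regions with a peak in every library, against -0.06. With a pseudocount of 1, 7 members (0.15%) were called higher and 27 (0.59%) lower for H3K4me3, against 0.81% and 0.28% of all regions. A count of 0 in these fits, with 2 libraries a stage, does not show that heights were stable. P0 heights of H3K4me3 chose the members and were not tested against later stages.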

How the data were processed

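ChIP-Seq peak lists of mouse retina were analysed. The submitters' processing notes name CASAVA, BWA 0.5.9-r26, Picard 1.65, SAMtools, R 2.14.0, MACS2 2.0.9, bedtools 2.17.0, SICER 1.1 and the mm9 genome, without their roles. The authors deposited 1 list per library, not pooled. There were 18 narrowPeak lists and 9 lists of H3K27me3 islands on a 200 bp grid. The 8 inputs were not analysed here. In the narrowPeak lists the authors deposited a fold enrichment and significance values of each peak as −log10 of p and of q, the last at least 1.31 in every list. The authors deposited the islands with a score whose making is not given in the sources used here, and it was not used. Reads per library are unknown, and depth limits which weak peaks were called. Replicate numbers follow the sample titles.

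Overlap meant at least 1 bp on chromosomes 1 to 19. A comparison peak was weighted to the members over 20 equal-count bins of fold enrichment. Intervals are 95% intervals, Wilson for shares and normal for differences. They cover counting error alone and treat peaks as independent, which neighbouring peaks are not. Per-library differences were tested with exact two-sided sign-flip permutation tests (scipy 1.17.1), adjusted over 3 marks. Heights over merged regions, taken as 0 where a library had no peak, were scaled on the median of regions with a peak in all 6 libraries. They were tested with limma 3.58.1 in R 4.3.3 on log2(height + pseudocount), the pseudocount being 2.08 for H3K27Ac and 3.28 for H3K4me3, with Benjamini-Hochberg adjustment at 0.05. Fold changes on this scale understate changes of low regions. The overlap and weighting functions were tested on simulated data. The alternatives were other bins, overlaps and intervals, other Brg1 and H3K4me3 lists, equal numbers of peaks, other scaling, pseudocounts and filters, a replicate block, and each library left out.

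The peaks named are the 5 ranked highest by each of 7 rules: P0 H3K4me3 height, height without P0 H3K27Ac, height with P0 H3K27me3, P21 H3K27Ac among those acetylated later, height without later H3K4me3, distance from Brg1 with P0 H3K27Ac, and length. The members, rules and tests were chosen with earlier results of these data known. Sequences are not shown, since no genome of this build was used.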

Additional observations from a re-analysis of the deposited data

Results flagged for a closer look

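For H3K27me3 the difference between peaks without Brg1 and matched peaks with Brg1 was negative in both wild-type P12 libraries, at -2.40 points in replicate 1 and -2.98 points in replicate 2, and positive in each of the 6 wild-type libraries of P0, P14 and P21, from 0.03 to 2.03 points. It was picked out because every library of 1 stage lay on one side of 0 and every library of the others on the opposite side, and the difference between stages was not tested. The P12 libraries were made with antibody AB3 and the others with AB1, so stage and antibody cannot be told apart. The Brg1-deficient P12 library, also made with AB3, gave -4.12 points.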

How the results depend on the processing

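The lower share of H3K27Ac kept its direction in all alternatives run, with mean differences between -40.7 points without matching and -17.3 points with 50% coverage, and between -20.6 and -19.2 points with each library left out, where the exact permutation test over 6 libraries gave p = 0.0312, the smallest it can give, which does not pass after adjustment over 3 marks. For both P0 libraries it was -49.8 points without matching, -18.9 with height and length, -10.5 with 50% coverage, -27.1 with the stronger 50% of Brg1 peaks, -19.2 with the replicates' roles exchanged, -24.1 with either library, and -24.0 to -21.9 with each library left out. H3K4me3 persistence stayed lower in every alternative, its mean between -20.9 points without matching and -2.03 with height and length. For both P21 libraries it was -28.7 points without matching, -2.53 with height and length, -3.88 with replicate 1 heights, -5.93 with 50% coverage, -6.62 with the stronger Brg1 peaks, -3.14 with roles exchanged, -5.71 with equal numbers, -3.48 with either library, and -4.67 to -3.85 with each library left out.

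The mean difference of H3K27me3, near 0, became positive at 10.6 points without matching, 2.84 with height and length, 0.16 with 50% coverage, 0.21 around the summit and 2.20 with the stronger Brg1 peaks, and lay between -0.35 and 0.36 with each library left out. It turned positive without P12 replicate 1 (0.28) and without P12 replicate 2 (0.36). Among the strongest 50% of replicate 2 peaks there were 959 members. They were 9.15% of the reproducible peaks there, against 24.5% of all reproducible peaks. The share of members found in Brg1-deficient retinae was 88.8% with equal numbers and 77.0% with 50% coverage for H3K4me3, 86.2% and 76.3% for H3K27Ac, and 87.8% to 89.3% for H3K27Ac with each Brg1-deficient library left out.

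Counts of called members moved most. For H3K27Ac between P21 and P0, members called higher and lower were 0 and 0 without scaling, 9 and 0 in regions with a peak in every library, 0 to 81 and 0 to 115 with each library left out, 50 lower with a pseudocount of 1, and 52 lower with only the stages compared. With a pseudocount of 1 there were 21 higher and 33 lower at P14 than P0, and 7 higher and 27 lower for H3K4me3 at P21 than P14, and 3 were higher at P14 than P0 in regions with a peak in every library. With a replicate block, members called at P21 against P0 were 69 higher (3.29%) and 68 lower (3.24%), against 14.1% and 4.66% of all regions. The differences between replicates correlated over regions with r = 0.08, 0.02 and 0.45 between pairs of stages, which passed 0.1 for P14 and P21 (0.45) and not for the other 2 pairs, so the numbers were not taken to pair the libraries. For H3K4me3, P14 and P21 share 1 replicate number. A replicate block over all 6 libraries, chosen after seeing the data, left 0 members called in either direction. An unadjusted limma p under 0.05 was reached in that fit by 556 members and by 2461 of all 21075 regions. The shares with new H3K27Ac in at least 1 library, given beside those in both, were also chosen after seeing the data. Unknown depth limits every share, most of all where 1 list is short. The causes of these changes were not tested.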
